A study of Mus musculus with 6 samples.

Results

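The mRNAs followed here, 9 in all, are widely cited as bound by the RNA-binding protein HuD and were measured in the mouse neocortex with and without HuD. They are *Gap43*, *Nrn1*, *Marcks*, *Map1b*, *Mapt*, *Ache*, *Cdkn1b*, *Msi1* and *Atg5*. They were chosen by name, with earlier results of these data known, and all 9 of 9 were found among the 13299 genes of the expression table. RNA-seq libraries were made from the neocortices of 3 HuD KO (*Elavl4*-/-) mice and 3 wildtype littermates, the controls. All were adult males of about 3 to 4 months on a line backcrossed to C57BL/6, and no mouse received a treatment. In the HuD KO allele, exon 2 of *Elavl4*, the gene of HuD, is replaced by a PGK-Neo cassette that shifts the reading frame, a germline change carried by every cell. Expression is given as FPKM, fragments of a gene scaled by transcript length and by the mapped fragments of the library. No counts are given, so sequencing depth and counting error are unknown.

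HuD is 1 of the neuronal members of the Hu family, which bind stretches rich in U or in A and U, mostly in the 3′-UTR, and it is best known for slowing the decay of its target mRNAs. GAP-43, neuritin, MARCKS, MAP1B and tau act in growing neurites and synapses, at the membrane, on actin or on microtubules. Acetylcholinesterase, p27Kip1, Musashi-1 and ATG5 act in transmitter breakdown, cell cycle exit, control of translation and autophagy, and their mRNAs are also described as HuD-bound. Binding was not measured in these libraries, and the comparison asks only whether the level of each mRNA differed when HuD was missing.

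The 3′-UTR stretches below are printed so that the U content of *Nrn1*, *Marcks*, *Gap43* and *Ache* can be compared, since HuD is known to bind U-rich sequence. Each is the 29-base window with the most U in the longest annotated 3′-UTR (GENCODE M21, GRCm38, mRNA strand, T written for U), with runs of 3 or more T in capitals. The window of *Nrn1* (chr13:36726439-36726467, minus strand) holds 24 U, that of *Marcks* (chr10:37135819-37135847, minus strand) 24, that of *Gap43* (chr16:42248800-42248828, minus strand) 16, and that of *Ache* (chr5:137294276-137294304, plus strand) 12.
Nrn1: TTTTTcttcttcTTTTTTTTTTcttcTTT
Marcks: TTTcTTTacTTTTacTTTTTTTTTTTTTT
Gap43: cttaaacaTTTgTTTcttggtgttgttat
Ache: gcccctagctgtatatacactaTTTaTTT
Of 1912 3′-UTRs within 20% of the length of that of *Nrn1*, 7.11% held a window with as many U. That share was 15.8% for *Marcks*, 60.3% for *Gap43* and 83.5% for *Ache*, so the windows of the last 2 are ordinary for 3′-UTRs of their length. Windows not printed held 26 U in *Map1b*, 25 in *Cdkn1b* and in *Msi1*, 22 in *Atg5* and 16 in *Mapt*.

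The longer AU-rich word UUAUUUAUU, which overlaps the shorter word AUUUA, was found in 2 of the 9 3′-UTRs and in 8.5% of all 13126 3′-UTRs searched. *Map1b* held it at 2 places, 2119 and 2342 bases after the stop codon (chr13:99423669-99423697 and chr13:99423446-99423474, minus strand). *Msi1* held 1 (chr5:115454032-115454060, plus strand), 239 bases after the stop codon. The word is in capitals below.
Map1b, site 1: tctatgttagTTATTTATTtcaaaattta
Map1b, site 2: tgcagcttttTTATTTATTatcctgtttc
Msi1: ctggtcgcttTTATTTATTtttggattag
AUUUA was present in all 9 and in 70.7% of all 3′-UTRs, and the U-rich word UUUNUUU in all 9 and in 70.6%. These shares are over all lengths, and presence depends on length. Among 3′-UTRs of similar length to that of *Map1b*, 98.3% held AUUUA and 98.1% UUUNUUU. For the short 3′-UTR of *Ache* the shares were 28.9% and 28.8%. The words were searched on the mRNA strand only, and matches that overlap were each counted. The number of UUUNUUU matches, which rises with length, was highest in *Marcks* (43), *Cdkn1b* (39), *Map1b* (35) and *Msi1* (31). It was 12 in *Nrn1*, 5 in *Mapt*, 4 in *Atg5*, 2 in *Gap43* and 1 in *Ache*. Per kb of 3′-UTR the order differed: *Msi1* 16.4, *Marcks* 15.7, *Cdkn1b* 11.3, *Nrn1* 9.47 and *Map1b* 8.03. The others held 4.39 (*Ache*), 3.41 (*Gap43*), 3.23 (*Atg5*) and 1.28 (*Mapt*). Among 3′-UTRs of similar length, 1.08% held at least as many as *Marcks*, 1.31% as many as *Msi1* and 2.28% as many as *Cdkn1b*, but 82.1% as many as *Mapt*. A match is a description of the annotated sequence and not a measured binding site.

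The genotype was checked first on *Elavl4* itself. Its level was 34.2, 30.4 and 28.3 FPKM in controls 1, 2 and 3, against 1.70, 1.07 and 1.52 in HuD KOs 1, 2 and 3, so all 3 HuD KO libraries fit their labels and 4.63% of the control mean remained. Genes were compared with limma on log2(FPKM + 1), with p-values adjusted by the Benjamini-Hochberg method over all genes tested and a threshold of 0.05, and log2 fold changes are means of HuD KOs less those of controls on that scale. A deposited comparison leaves out HuD KO 2, and the study excluded a HuD KO library, which it did not name, as an outlier. The comparison was therefore made over 5 libraries, without HuD KO 2, and its values over all 6 are given beside them. *Elavl4* fell by 3.61 on the log2 scale (adjusted p = 0.000687, limma, 5 libraries). In all, 6 of 13121 genes (0.0457%) passed over 5 libraries, and 4 of 13114 (0.0305%) over 6.

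Control 3 and HuD KO 2 stood apart, and each touches several of the 9 mRNAs. HuD KO 2 held the highest value of 33.0% of 13094 genes and the lowest of another 31.0%. Control 3 carried RNA of hypothalamic neuropeptides: the summed level of the list of 7 was 284 FPKM there and between 1.59 and 4.41 FPKM in the other 5 libraries. Its excitatory neuron markers had a median 0.85 below the mean of the other libraries on the log2 scale, and *Slc17a7*, the vesicular glutamate transporter of cortical excitatory neurons, was at 95.4 FPKM there and at 107 to 217 FPKM in the other 5. Meningeal fibroblast markers differed by genotype, with all 8 lower in HuD KOs over 5 and over 6 libraries. Their sum was 28.0, 26.3 and 54.1 FPKM in controls, against 19.2, 15.1 and 20.7 in HuD KOs. Over 5 libraries all 7 endothelial markers were lower and all 9 oligodendrocyte markers higher. The part of such RNA in the levels of the 9 mRNAs was not tested.

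None of the 9 mRNAs passed the adjusted threshold, over 5 libraries or over 6. At an unadjusted p under 0.05, *Nrn1* was higher and *Ache* lower in HuD KOs over 5 libraries, beside 3.43% of all genes called at that threshold (1.62% higher and 1.81% lower). Over 6 libraries none of the 9 was called, beside 3.48% of all genes (1.63% higher and 1.85% lower). A log2 fold change of at least 0.5 in size was found for 2 of the 9 over 5 libraries (*Nrn1* and *Ache*) and for 1 over 6 (*Nrn1*), beside 2.45% and 3.39% of all genes. The groups did not overlap for 3 of the 9 over 5 libraries (*Nrn1*, *Mapt* and *Ache*) and for 1 over 6 (*Mapt*), beside 19.2% and 10.1% of all genes. In each fit 2 of the 9 log2 fold changes were above 0, beside 44.5% of all genes over 5 libraries and 47.6% over 6. The median log2 fold change of the 9 mRNAs was -0.07 over 5 libraries and -0.06 over 6, beside -0.02 and -0.01 for all genes tested. Leaving *Nrn1* and *Ache* aside, the log2 fold changes of the remaining 7 lay between -0.19 and 0.0013 over 5 libraries. RNA from whole tissue was measured, so fewer cells that contain an mRNA and less of it per cell cannot be told apart.

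**Figure D1:**
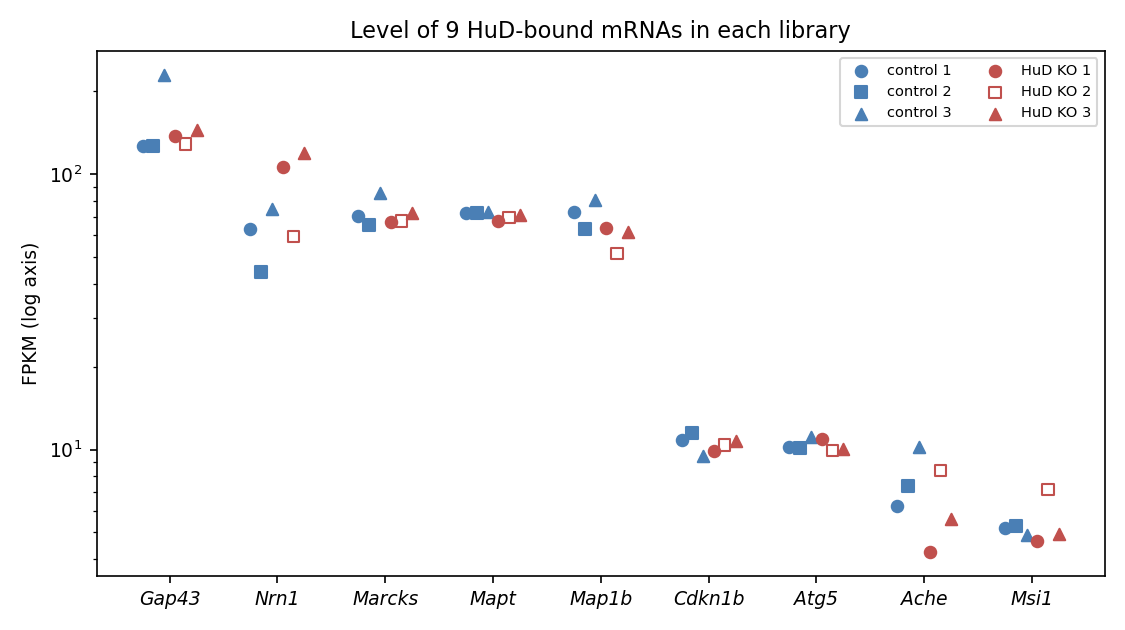
FPKM on a log axis of each mRNA in each library, with controls in blue, HuD KOs in red and HuD KO 2 as an open square. The 5 abundant mRNAs lie well above the 4 scarcer ones in all libraries, *Nrn1* is highest in HuD KOs 1 and 3, and *Gap43* is highest in control 3.

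The 9 mRNAs fell into an abundant and a scarcer set. The mean over the 6 libraries was 149.0 FPKM for *Gap43*, 77.9 for *Nrn1*, 71.3 for *Marcks*, 71.1 for *Mapt* and 65.6 for *Map1b*. The scarcer set held *Cdkn1b* at 10.5, *Atg5* at 10.4, *Ache* at 7.02 and *Msi1* at 5.35 FPKM. *Gap43* was above *Nrn1*, *Map1b* above *Cdkn1b* and *Atg5* above *Ache* in 6 of 6 libraries. Other neighbours did not keep their order: *Nrn1* was above *Marcks* in 2 of 6 libraries, *Marcks* above *Mapt* in 2, *Mapt* above *Map1b* in 4, *Cdkn1b* above *Atg5* in 4, and *Ache* above *Msi1* in 5. The spread between libraries was uneven as well. *Nrn1* (SD 0.53 on the log2 scale over 6 libraries), *Ache* (0.39) and *Gap43* (0.33) varied most, and *Mapt* (0.04), *Atg5* (0.06) and *Cdkn1b* (0.09) least.

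*Nrn1* encodes neuritin, a small membrane-anchored protein that neuronal activity induces and that promotes growth of neurites and synapses. Its mRNA (ENSMUSG00000039114.16, chr13:36725361-36735131, minus strand) was at 63.3, 44.1 and 74.9 FPKM in controls 1, 2 and 3, against 106, 59.4 and 119 in HuD KOs 1, 2 and 3. HuD KOs 1 and 3 were both above every control, while HuD KO 2 lay between controls 1 and 2. The mean was 60.8 ± 15.6 FPKM (SD, n = 3) in controls, against 113 ± 9.32 FPKM (SD, n = 2) in the HuD KOs of the 5-library comparison, a ratio of 1.86. Over 6 libraries the HuD KO mean was 95.1 ± 31.6 FPKM (SD, n = 3) and the ratio 1.56.

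The log2 fold change of *Nrn1* was 0.91 over 5 libraries (95% interval 0.36 to 1.47), and 30 of 13121 genes had a higher one. Its unadjusted p was 0.00746 and its adjusted p 0.995 (limma), so it did not pass. Over 6 libraries the log2 fold change was 0.61 (95% interval -0.09 to 1.31), with an adjusted p of 0.871 (limma). Two-sided exact permutation tests gave p = 0.2 over 5 libraries, the smallest that this doubled p can reach with 3 against 2, and p = 0.3 over 6. Every HuD KO library was above every control for 8.2% of all genes over 5 libraries. The paralog *Nrn1l* was at 1.35, 1.66 and 1.01 FPKM in controls, against 1.38, 2.47 and 1.23 in HuD KOs.

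Single genes of the cortical neuron lists were, like *Nrn1*, high in HuD KOs 1 and 3 alone, but the lists as a whole were not. *Neurod6*, a transcription factor of excitatory cortical neurons, was at 33.9, 44.1 and 23.8 FPKM in controls, against 58.7, 29.7 and 60.6 in HuD KOs. *Tle4*, a transcriptional corepressor that marks deep layer neurons, was at 11.1, 11.9 and 11.6 FPKM in controls, against 16.9, 10.7 and 16.6 in HuD KOs. In both, HuD KOs 1 and 3 were above every control and HuD KO 2 was among or below the controls, as for *Nrn1*. The deep layer list had 6 of 9 markers higher in HuD KOs over 5 libraries, 2 of them at an unadjusted p under 0.05, with a median log2 fold change of 0.44. Against the mean of the other libraries, the median of the list stood at 0.44 in HuD KO 1, -0.30 in HuD KO 2, 0.18 in HuD KO 3 and 0.22 in control 3, so that control 3 was level with HuD KO 3. The excitatory neuron list had 9 of 11 markers higher over 5 libraries, with a median of 0.13, but it was highest in HuD KO 2, where *Nrn1* was low. Its median against the other libraries was 0.01, 0.18 and -0.85 in controls 1 to 3 and -0.05, 0.42 and 0.16 in HuD KOs 1 to 3.

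Summed markers of hippocampus and of choroid plexus were highest in the same 3 libraries as *Nrn1*: HuD KOs 1 and 3 and control 3. Striatal neuron markers were not, with 234 FPKM in control 3, 232 in HuD KO 1, 141 in HuD KO 2 and 74.9 in HuD KO 3. Hypothalamic neuropeptides were high in control 3 alone. Most of the summed level of the 4 hippocampal neuron markers in the table was *Wfs1*. Their sum was 26.5, 27.6 and 50.7 FPKM in controls, against 35.6, 24.4 and 37.3 in HuD KOs. *C1ql2*, a marker of dentate granule cells, had the largest difference of these (log2 fold change 1.17, unadjusted p = 0.0709, adjusted p = 0.995, limma). The summed level of the 4 choroid plexus markers in the table, most of it *Ttr*, was 3.23, 2.92 and 298 FPKM in controls, against 161, 6.13 and 88.8 in HuD KOs. Control 3 was the highest library of both the hippocampal and the choroid plexus list, whereas *Nrn1* was highest in HuD KO 3. The part of cortical neurons, hippocampus or choroid plexus in the *Nrn1* difference was not tested.

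Of 25 other activity-regulated genes, 20 had a log2 fold change above 0 and 5 below 0 over 5 libraries, with a median of 0.26. None passed the adjusted threshold, and *Dusp6*, a phosphatase that switches off ERK, was the 1 gene at an unadjusted p under 0.05 (log2 fold change 0.58). Their order of libraries was not that of *Nrn1*: the median of the list stood 0.67 above the mean of the other libraries in HuD KO 1 but 0.26 below it in HuD KO 3, where *Nrn1* was highest. *Bdnf*, the activity-induced growth factor, was at 6.18, 7.63 and 6.19 FPKM in controls, against 7.44, 5.73 and 6.70 in HuD KOs, so its groups overlapped. Whether neuronal activity had a part in the *Nrn1* difference was not tested.

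**Figure D2:**
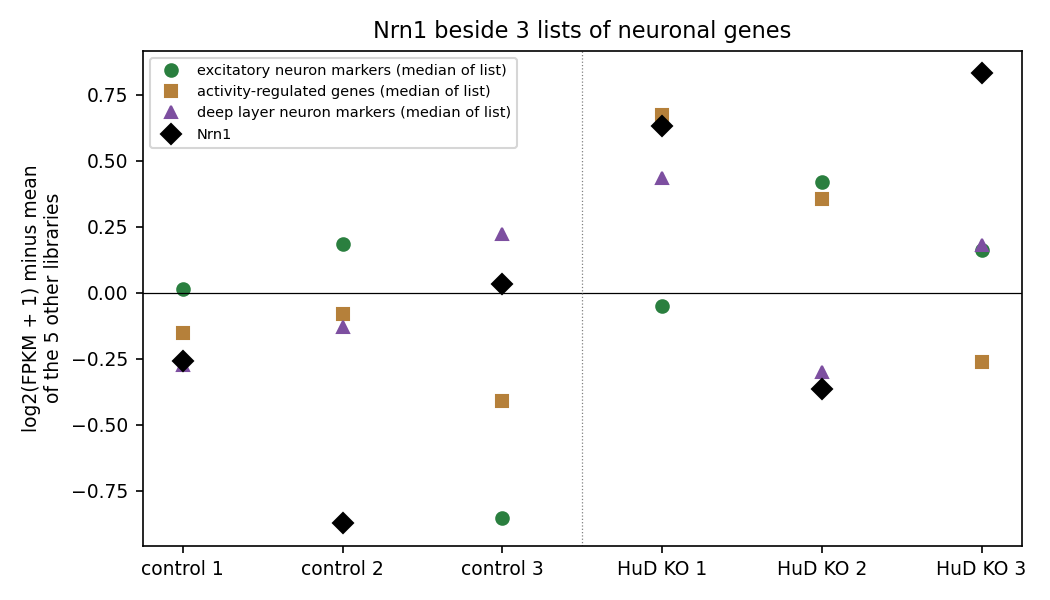
For each library, log2(FPKM + 1) minus the mean of the 5 other libraries, for *Nrn1* (black diamonds) and for the median gene of 3 lists of neuronal genes. In HuD KO 3 *Nrn1* is 0.83 above the other libraries while the activity-regulated list is 0.26 below, and the deep layer list lies above 0 in HuD KOs 1 and 3 and in control 3.

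Profiles over the 6 libraries were compared for the 3 most variable members, each profile centred on its own mean and likeness given as a root mean square difference on the log2 scale among 11997 genes. The genes nearest to *Nrn1* were *Mapkapk5* (0.178), *Aasdhppt* (0.1995) and *Rab3d* (0.251). *Aasdhppt*, which is on the study's list of HuD targets, was at 4.72, 4.47 and 5.20 FPKM in controls, against 11.4, 5.26 and 10.9 in HuD KOs. Its 3 HuD KO values were above all controls, as for 4.43% of all genes over 6 libraries, with HuD KO 2 close to control 3.

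*Gap43* encodes a growth cone protein that protein kinase C phosphorylates and calmodulin binds, and it is the most studied HuD target. Its mRNA (ENSMUSG00000047261.9, chr16:42248442-42340651, minus strand) was at 127, 126 and 229.9 FPKM in controls, against 138, 129 and 144 in HuD KOs. Control 3 stood 1.73 times above the mean of the other 5 libraries, and those 5 lay within 126 to 144 FPKM. The log2 fold change was -0.13 over 5 libraries (95% interval -0.82 to 0.56, adjusted p = 0.995, limma) and -0.18 over 6 (adjusted p = 0.888, limma). Without control 3 it was 0.15 over 4 libraries, so its sign rested on that library. Both exact permutation tests gave p = 1.

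The genes with the profile nearest to *Gap43* shared the high value of control 3, which follows from choosing them by likeness to that profile. They were *Tmem28* (root mean square difference 0.035), *D430019H16Rik* (0.047) and *Cdo1* (0.052). *Cdo1*, cysteine dioxygenase, was at 11.9, 11.9 and 20.3 FPKM in controls, against 12.8, 11.7 and 14.0 in HuD KOs. Control 3 is the library with *Pmch* at 127 FPKM, *Avp* at 77.9 FPKM and *Oxt* at 31.1 FPKM, the mRNAs of hypothalamic peptides that were at most 1.33 FPKM in the other 5. The part of hypothalamic RNA in the *Gap43* value of control 3 was not tested.

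*Marcks* encodes another substrate of protein kinase C, which binds actin and the inner face of the membrane, and it is the 1 member on the study's list of 738 HuD targets. Its mRNA (ENSMUSG00000069662.5, chr10:37133375-37138920, minus strand) was at 70.4, 65.4 and 85.4 FPKM in controls, against 67.2, 67.5 and 72.1 in HuD KOs. The groups overlapped, and control 3 was again highest. The log2 fold change was -0.07 (95% interval -0.39 to 0.24, adjusted p = 0.995, limma) over 5 libraries, -0.09 over 6, and 0.04 without control 3.

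Other genes of the growth cone and of protein kinase C signalling were read beside these 3. Of 23 growth cone and neurite growth genes, 10 had a log2 fold change above 0 and 13 below 0 over 5 libraries, none at an unadjusted p under 0.05, with a median of -0.02 and a range of -0.20 to 0.18. *Fscn1*, the actin bundler fascin, was at 63.5, 65.2 and 48.5 FPKM in controls, against 64.9, 65.3 and 68.5 in HuD KOs, so HuD KOs 2 and 3 were above every control but HuD KO 1 was below control 2. Of 13 protein kinase C and calmodulin genes, 11 were above 0 over 5 libraries and 9 over 6, none at an unadjusted p under 0.05, with a median of 0.13 over 5.

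*Map1b* encodes a microtubule-associated protein of growing axons. Its mRNA (ENSMUSG00000052727.6, chr13:99421446-99516540, minus strand) was at 72.8, 63.3 and 80.7 FPKM in controls, against 63.8, 51.5 and 61.7 in HuD KOs. HuD KOs 2 and 3 were below every control, and HuD KO 1 was just above control 2, so the groups overlapped. The log2 fold change was -0.19 over 5 libraries (95% interval -0.48 to 0.09, unadjusted p = 0.145 and adjusted p = 0.995, limma). Over 6 libraries it was -0.29 (95% interval -0.61 to 0.03, unadjusted p = 0.0718 and adjusted p = 0.871, limma). Its direction was the same under all 14 alternatives, some of which cannot change a log2 fold change.

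*Mapt* encodes tau, the axonal microtubule protein, and was the steadiest of the 9. Its mRNA (ENSMUSG00000018411.17, chr11:104231390-104332090, plus strand) was at 72.4, 72.5 and 73.1 FPKM in controls, against 67.9, 69.7 and 70.9 in HuD KOs. All 3 HuD KOs were below all 3 controls, which held for 5.7% of all genes over 6 libraries and for 11% over 5. The change of the mean was -4.55% over 5 libraries and -4.41% over 6, with a log2 fold change of -0.07 (95% interval -0.23 to 0.10, adjusted p = 0.995, limma). The two-sided exact permutation test gave p = 0.1 over 6 libraries, the smallest they allow. In limma the variance of a gene is moderated towards that of genes of similar level, and the interval held 0.

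**Figure D3:**
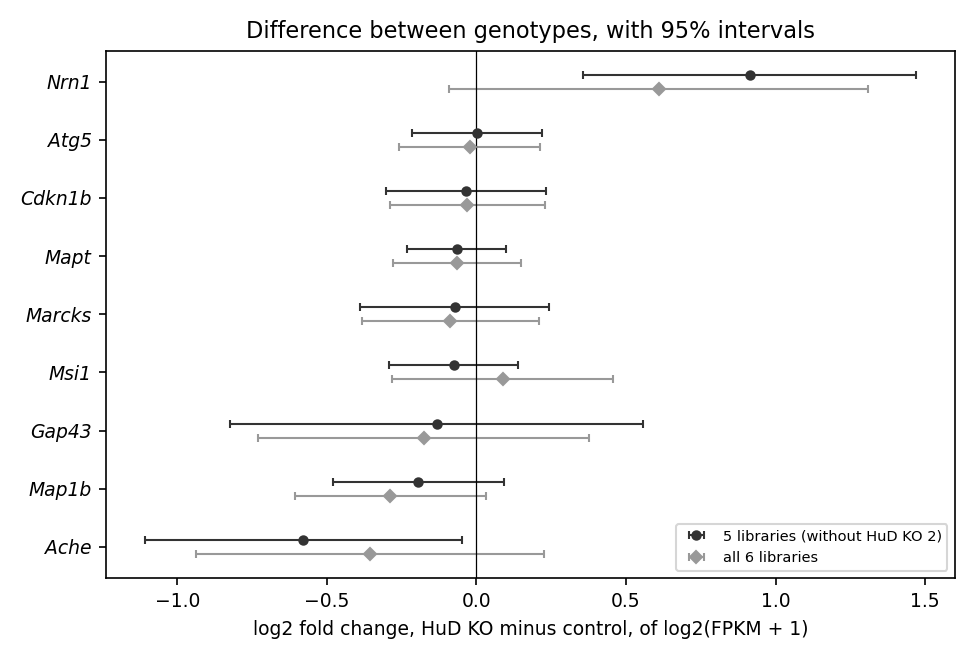
Log2 fold change of each mRNA, HuD KO minus control on log2(FPKM + 1), with 95% intervals from limma, over 5 libraries (black circles) and over all 6 (grey diamonds). *Nrn1* at 0.91 and *Ache* at -0.58 are the 2 whose interval leaves out 0 over 5 libraries, and no interval does over 6.

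Of 21 other microtubule genes, 8 had a log2 fold change above 0 and 13 below 0 over 5 libraries, with a median of -0.03 and a range of -0.15 to 0.14. *Tubb3*, neuronal beta-tubulin, was at 127, 133 and 139.6 FPKM in controls, against 115, 126 and 126 in HuD KOs. All 3 HuD KO values were below all controls, as for 5.7% of all genes over 6 libraries. The log2 fold change of -0.15 did not pass. Kinases and phosphatases of tau and MAP1B were above 0 in 10 of 16 cases, with a median of 0.03. No gene of either list was at an unadjusted p under 0.05.

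*Ache* encodes acetylcholinesterase, which breaks down acetylcholine at synapses. Its mRNA (ENSMUSG00000023328.14, chr5:137287519-137294466, plus strand) was at 6.23, 7.39 and 10.2 FPKM in controls, against 4.25, 8.39 and 5.61 in HuD KOs. HuD KOs 1 and 3 were below every control, but HuD KO 2 was above controls 1 and 2. The mean was 7.95 ± 2.06 FPKM (SD, n = 3) in controls, against 4.93 ± 0.962 FPKM (SD, n = 2) in HuD KOs 1 and 3. The log2 fold change was -0.58 over 5 libraries (95% interval -1.11 to -0.05, unadjusted p = 0.0371 and adjusted p = 0.995, limma). With HuD KO 2 it was -0.36 (95% interval -0.94 to 0.23, unadjusted p = 0.194 and adjusted p = 0.871, limma). Without control 3, the highest library, it was -0.40 over 4 libraries.

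Other cholinergic genes were read beside *Ache*. *Chat*, *Slc18a3* and *Colq* are not in the table, and *Slc5a7*, the choline transporter of cholinergic terminals, was at 2.23 FPKM in control 3 and at 0.101 to 0.758 FPKM in the other 5 libraries. *Bche*, the related butyrylcholinesterase, was at 0.990, 1.28 and 1.74 FPKM in controls, against 1.27, 0.534 and 1.32 in HuD KOs. Control 3 was thus the highest library of all 3 genes, while HuD KO 2 was high in *Ache* and lowest in *Bche*. The summed level of 8 striatal neuron markers was 64.5, 65.2 and 234 FPKM in controls, against 232, 141 and 74.9 in HuD KOs. All 8 had a log2 fold change above 0 over 5 libraries, with a median of 0.43, and the part of striatal RNA in the *Ache* values was not tested. Of the 10 cholinergic genes tested besides *Ache*, 6 had a log2 fold change above 0 and 1, the nicotinic receptor subunit *Chrna4*, was at an unadjusted p under 0.05 (0.38). The muscarinic receptor *Chrm1* was at 19.4, 21.1 and 19.1 FPKM in controls, against 23.0, 23.4 and 22.5 in HuD KOs, all 3 above all controls, and did not pass. Every HuD KO library was above every control for 4.43% of all genes over 6 libraries. By profile, *Dyx1c1* (root mean square difference 0.089), *Lrig1* (0.102) and *Mfsd2a* (0.117) were nearest to *Ache*. *Mfsd2a*, a lipid transporter of the blood-brain barrier, was at 4.43, 5.15 and 7.29 FPKM in controls, against 3.88, 6.32 and 4.04 in HuD KOs.

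*Cdkn1b* encodes p27Kip1, an inhibitor of cyclin-dependent kinases. Its mRNA (ENSMUSG00000003031.14, chr6:134920401-134925513, plus strand) was at 10.8, 11.5 and 9.44 FPKM in controls, against 9.87, 10.4 and 10.7 in HuD KOs. Every HuD KO value lay within the range of the controls, and the log2 fold change was -0.03 over 5 libraries (95% interval -0.30 to 0.23). Of 16 other G1 cell cycle genes tested, 10 were above 0 and 6 below 0, with a median of 0.01. *Cks1b*, which serves the ubiquitin ligase that degrades p27Kip1, had the smallest p among them (log2 fold change -0.50, unadjusted p = 0.00813, adjusted p = 0.995, limma). It was at 1.80, 1.99 and 1.58 FPKM in controls, against 1.14, 1.78 and 0.822 in HuD KOs, with HuD KO 2 inside the control range.

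*Msi1* encodes Musashi-1, an RNA-binding protein of neural progenitors and astrocytes that controls translation. Its mRNA (ENSMUSG00000054256.11, chr5:115429599-115455698, plus strand) was at 5.17, 5.29 and 4.89 FPKM in controls, against 4.65, 7.16 and 4.95 in HuD KOs. HuD KO 2 was far above the other 5 libraries, and its inclusion turned the log2 fold change from -0.08 (95% interval -0.29 to 0.14) to 0.09 (95% interval -0.28 to 0.46). The paralog *Msi2* was at 15.6, 12.3 and 13.9 FPKM in controls, against 11.8, 8.72 and 11.6 in HuD KOs. All 3 were below all controls, as for 5.7% of all genes over 6 libraries, with a log2 fold change of -0.23 that did not pass. Of 12 Musashi and Notch genes, 5 were above 0 and 7 below 0 over 5 libraries. *Hes1*, a target of Notch signalling, was at 4.41, 5.07 and 4.62 FPKM in controls, against 6.17, 7.51 and 6.15 in HuD KOs, the 1 of these genes at an unadjusted p under 0.05 (log2 fold change 0.33, unadjusted p = 0.0127, adjusted p = 0.995, limma).

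*Atg5* encodes a protein of the conjugation system that lipidates LC3 in autophagy. Its mRNA (ENSMUSG00000038160.7, chr10:44268358-44364291, plus strand) was at 10.2, 10.1 and 11.1 FPKM in controls, against 11.0, 9.93 and 10.1 in HuD KOs. The groups overlapped, and the log2 fold change was 0.0013 over 5 libraries (95% interval -0.22 to 0.22) and -0.02 over 6. Of 27 other autophagy genes 14 were above 0 and 13 below 0, none at an unadjusted p under 0.05, with a median of 0.01 and a range of -0.16 to 0.18.

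**Figure D4:**
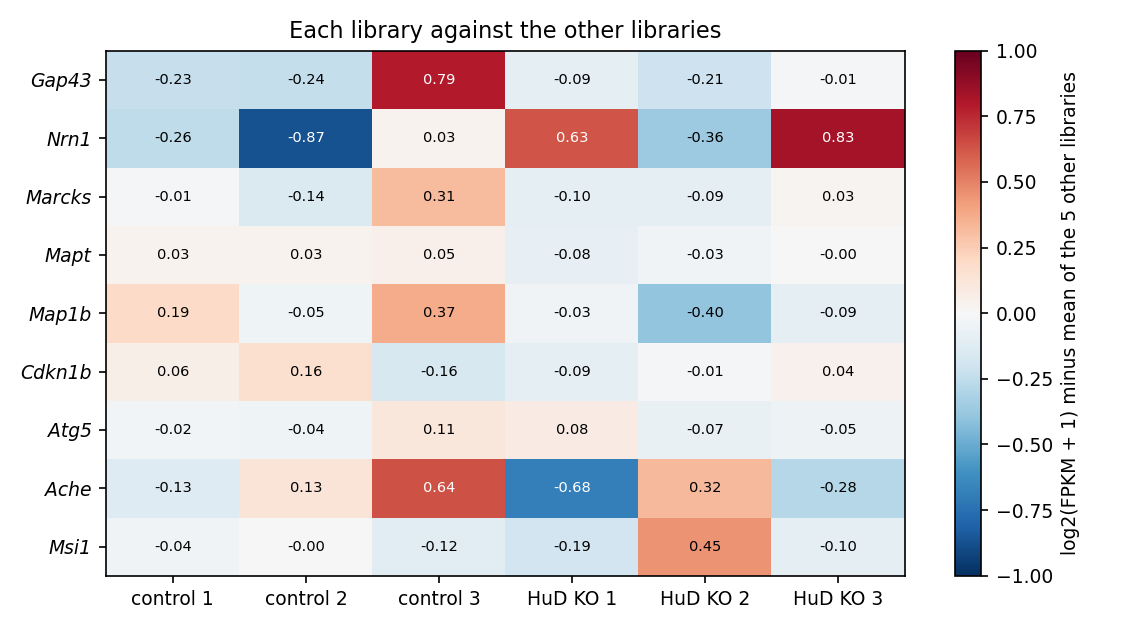
For each mRNA and library, log2(FPKM + 1) minus the mean of the 5 other libraries, with higher values in red and lower values in blue. Control 3 holds the highest value of 6 of the 9 mRNAs, and *Nrn1* (-0.87 in control 2 to 0.83 in HuD KO 3) and *Gap43* (0.79 in control 3) hold the largest departures.

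The 9 mRNAs did not move as 1 group across libraries. Control 3 was the highest library for 6 of the 9 and the lowest for 1, beside 28.5% and 19.0% of all genes. Control 2 was the lowest for 3, HuD KO 1 for 3 and HuD KO 2 for 2, beside 10.1%, 11.3% and 31.0% of all genes. The median of the 9 was 0.11 above the mean of the other libraries in control 3 and between -0.09 and -0.01 in the other 5.

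Other RNA-binding proteins that read the same kind of sequence were compared as well. *Elavl2*, the neuronal Hu protein HuB, was at 4.76, 5.70 and 6.21 FPKM in controls, against 5.32, 11.1 and 15.9 in HuD KOs. HuD KOs 2 and 3 were above every control and HuD KO 1 was within their range, with a log2 fold change of 0.66 (95% interval -0.34 to 1.67, adjusted p = 0.995, limma) over 5 libraries and 0.74 over 6. The order of *Elavl2* was not that of *Nrn1*, which was lowest in HuD KO 2 among the HuD KOs. Neither *Elavl1* nor *Elavl3* passed, with log2 fold changes of 0.10 and 0.12. *Zfp36l1*, a factor that speeds decay of mRNAs with AU-rich elements, was at 6.65, 8.16 and 10.1 FPKM in controls, against 5.54, 4.41 and 5.27 in HuD KOs. All 3 of its HuD KO values were below all controls, as for 5.7% of all genes over 6 libraries. Its log2 fold change was -0.52 (unadjusted p = 0.0214, adjusted p = 0.995, limma). Of 10 such decay factors, 4 were above 0 and 6 below 0 over 5 libraries, beside 44.5% of all genes above 0.

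The study's longer list of HuD targets gives a wider frame for the 9. Of 738 listed, 726 were matched and 724 tested, and 313 were above 0 and 411 below 0 over 5 libraries, with a median log2 fold change of -0.02, the same as all genes. Over 6 libraries 245 were above 0 and 479 below 0, with a median of -0.07 against -0.01 for all genes. Of all genes, 44.5% were above 0 over 5 libraries and 47.6% over 6. With 1 of the 5 libraries left out, the median of the targets ran from -0.036 to 0.0016, so the value of -0.07 came only with HuD KO 2. *Cbfa2t2*, a transcriptional corepressor, was the 1 listed target that passed over 5 libraries (adjusted p = 0.0398, limma). It was at 1.12, 1.45 and 1.27 FPKM in controls, against 5.80, 1.23 and 5.28 in HuD KOs, so HuD KO 2 was at the control level, as for *Nrn1*, and no listed target passed over 6 libraries. Genes with and without UUAUUUAUU in the 3′-UTR had median log2 fold changes of -0.02 (1101 genes) and -0.02 (11866 genes) over 5 libraries, and of -0.04 and -0.01 over 6. For AUUUA the medians were -0.02 with and -0.01 without the word over 5 libraries, and -0.03 and 0.05 over 6. For UUUNUUU they were -0.02 and -0.01 over 5 libraries, and -0.03 and 0.04 over 6.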

How the data were processed

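RNA-seq of the neocortices of 3 control and 3 HuD KO mice was used as gene-level FPKM. The authors checked reads with FastQC 0.11.5, trimmed them with cutadapt and Trimmomatic and aligned them to mm10 with STAR 2.7.3a. FPKM values were used as deposited. The program behind them is not given in the sources read. Both tables deposited were equal in the 5 shared libraries. Each holds 1 line of sums, which was left out, and the authors' own comparison (fold changes, p and q values), which was not used. Depth is unknown.

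The limma package (3.58.1, under R 4.3.3) was fitted to log2(FPKM + 1) of all genes whose mean reached 0.5 FPKM, by lmFit and eBayes with a variance trend. Genotype was the only term, and the fit used 5 libraries, leaving out HuD KO 2. Because a pseudocount of 1 FPKM was added, fold changes of scarce genes are understated. Exact permutation tests (two-sided) used SciPy 1.17.1 with Python 3.11.15. The model was tested on simulated data with independent noise and no library that stood apart. No conclusion is drawn from that test. Alternatives were all 6 libraries, another pseudocount, other filters, median scaling, quantile normalization, no variance trend, a replicate block, and the omission of single libraries. The 3′-UTR of each gene was the longest in GENCODE M21.

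Genes named are the 9 members, the Hu genes, up to 3 of each list by smallest p and the 3 nearest profiles of the 3 most variable members. *Nrn1l*, *Bdnf*, *Slc5a7*, *Bche*, *Pmch* and the 3′-UTR words were chosen after values were seen. The members and lists were chosen with earlier results of these data known.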

Additional observations from a re-analysis of the deposited data

How the results depend on the processing

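None of the 9 mRNAs passed the adjusted threshold under any of the 14 alternatives run, and the lowest adjusted p of any was 0.364 (*Nrn1* without control 3, limma). Of 126 recomputed log2 fold changes of the 9, 113 kept their direction, and *Nrn1*, *Map1b*, *Mapt* and *Ache* kept it throughout. The other filters and the fit with no variance trend cannot change a log2 fold change, so their directions were fixed in advance. Over 6 libraries the replicate block gave the same values as the plain fit, and over 5 the same as leaving out control 2. The tally of directions is therefore not one of independent checks. *Gap43* and *Marcks* turned to 0.15 and 0.036 without control 3, and their values with 1 library left out ran from -0.28 to 0.15 and from -0.15 to 0.036. *Cdkn1b* turned to 0.024 with the replicate block over 5 libraries and ran from -0.11 to 0.024 with 1 library left out. *Msi1* turned to 0.088 with all 6 libraries, with and without the replicate block. *Atg5* turned to -0.023 with all 6 libraries and with the replicate block over 5 and over 6, and ran from -0.054 to 0.057 with 1 library left out. Leaving out 1 library moved *Nrn1* between 0.70 and 1.08 and *Ache* between -0.75 and -0.40. The cause was not tested.

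The number of genes that passed, 6 over 5 libraries, was 2 with a pseudocount of 0.1 FPKM and 3 with the replicate block over 5 or over 6 libraries. With 1 library left out it ran from 2 (without control 1 or HuD KO 1) to 11 (without control 3). The median of the listed HuD targets was -0.069 with all 6 libraries, with and without the replicate block. Replicate numbers were not treated as pairs, because deviations of libraries with the same number correlated at -0.12, 0.18 and 0.04. With 3 controls against 2 HuD KOs, the two-sided exact permutation test used, which doubles the smaller tail, cannot go below p = 0.2.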
